A study of Mus musculus with 4 samples.

Results

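Enteroendocrine cells are the hormone-producing cells of the gut lining, and they read the contents of the lumen through receptors on their surface. The 7 receptor genes Ffar1, Ffar2, Ffar3, Ffar4, Gpr119, Gpbar1 and Casr encode known nutrient sensors, and they were followed among 29161 genes in the count table. All 7 had a row in the table. Detection of a receptor meant at least 5 counts in a cell. It was examined in cells that were high for a hormone gene and in cells low for Chgb, separately on each plate.

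All 7 genes encode G-protein-coupled receptors. Ffar1 and Ffar4 encode receptors for long-chain fatty acids, and Ffar2 and Ffar3 encode receptors for the short-chain fatty acids that gut bacteria make. Gpr119 encodes a receptor for lipid amides and monoacylglycerols, Gpbar1 the surface receptor for bile acids, and Casr a calcium-sensing receptor that also responds to aromatic amino acids. In the intestine these receptors are known for linking a meal to the release of cholecystokinin (from Cck), GIP (from Gip), GLP-1 (from Gcg), ghrelin (from Ghrl) and serotonin, which is made by the enzyme that Tph1 encodes.

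The study sequenced single cells sorted from enteroids, which are small epithelial structures cultured in Matrigel in a medium that held noggin, EGF and R-spondin-1. All enteroids came from female CD1 mice that were Neurog3eYFP/+, that is, with a yellow fluorescent reporter on 1 of the Neurog3 alleles. Neurog3 starts the endocrine programme, so the reporter marks endocrine progenitors and cells that come from them, and every group used here carried it. Plates 1, 2 and 3 were duodenum replicates 1, 2 and 3, from mice aged 39, 12 and 12 weeks, and plate 4 was jejunum replicate 1, aged 12 weeks. The table held 72, 83, 72 and 63 cells of plates 1 to 4, or 290 in all. Replicates are plates throughout. The labels do not say that the plates came from separate animals, so p-values measure the spread between these plates only. Tissue, animal and plate cannot be told apart.

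Depth differed between plates, with total counts of 23893272 to 46490618 per plate and 202711 to 2312044 per cell. The median cell had 321533.5 counts on plate 1 and 678124 on plate 4. No pair of columns held identical values. Plate 1 stands apart in its hormones: it had 0 counts of Gip and 0 of Gcg in 72 cells, and 1178 counts of Cck against 54585 to 241889 on the others. In the sum of a plate or class, fewer cells with a transcript and less transcript per cell cannot be told apart, and for that reason the number of cells is given beside each level.

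A cell was called Cck-high, Gip-high, Gcg-high or Ghrl-high at 1000 counts per 1000000 counts (CPM) or more of that gene, Tph1-high at 200 CPM or more, and Chgb-low under 2000 CPM. Chgb encodes chromogranin B, a protein of hormone granules. There were 35 Cck-high cells (1, 15, 9 and 10 on plates 1 to 4), 11 Gip-high (0, 6, 1 and 4), 11 Gcg-high (0, 2, 2 and 7), 16 Ghrl-high (2, 6, 2 and 6), 97 Tph1-high (21, 25, 20 and 31) and 139 Chgb-low cells (44, 37, 39 and 19). The classes overlap. All 11 Gcg-high cells were also Cck-high, as were 6 of the 11 Gip-high and 6 of the 16 Ghrl-high cells, and 12 of the 16 Ghrl-high cells were Chgb-low. Comparisons therefore used the 120 Chgb-low cells that were high for none of the 5 hormones (42, 28, 37 and 13), called hormone-free Chgb-low cells below. A further 26 cells (7, 8, 6 and 5) were high for none of the 5 hormones but not Chgb-low, and entered no test between classes. Of these 26, 2 had Ffar1, with plate sums of 0.7 to 128.5 CPM, and 13 had Ffar2.

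The hormone-free cells carried more goblet and Paneth marker RNA than the Cck-high and Tph1-high cells. The 7 goblet markers summed to 18826 to 28475 CPM in them across plates, against 2806 to 9517 in Cck-high and 518 to 1128 in Tph1-high cells. The 6 Paneth markers summed to 3916 to 14895, 324 to 1502 and 248 to 393 CPM in the same order. The 5 endocrine markers other than Chgb summed to 204 to 1168 CPM in the hormone-free cells, 3780 to 6767 in Cck-high and 2925 to 12481 in Tph1-high cells. Immune and tuft markers stayed at or under 11.1 CPM in these 3 classes. The part of goblet and Paneth content in the receptor differences was not tested.

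Ffar2, Ffar3 and Ffar1 stand next to each other on chromosome 7 of GRCm38, all on the minus strand: Ffar2 (ENSMUSG00000051314) at chr7:30818348-30823775, Ffar3 (ENSMUSG00000019429) at chr7:30854330-30856178 and Ffar1 (ENSMUSG00000044453) at chr7:30857390-30861564. GENCODE M21 places 30554 bases between Ffar2 and Ffar3 and 1211 between Ffar3 and Ffar1, with 0 annotated genes in either gap. The other members lie apart, with Ffar4 (ENSMUSG00000054200) at chr19:38097071-38114263, Gpr119 (ENSMUSG00000051209) at chrX:48667979-48674478, Gpbar1 (ENSMUSG00000064272) at chr1:74278550-74279624 and Casr (ENSMUSG00000051980) at chr16:36493696-36562141. All 7 are annotated as protein-coding.

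The sequences just before the annotated starts of the chromosome 7 neighbours are shown because these 3 genes lie together. Of 170 cells with Ffar2, 76 were Tph1-high, as were 33.4% of all cells. Of 29 cells with Ffar1, 19 were Cck-high, as were 5 of 7 with Ffar3 and 12.1% of all cells. The sequences are taken from the RefSeq promoter table of GRCm38.p6, on the minus strand and 5′ to 3′, and none overlaps an annotated exon. They cover chr7:30861565-30861720 for Ffar1 (156 bases), chr7:30823776-30824025 for Ffar2 (250) and chr7:30856179-30856428 for Ffar3 (250). Capitals mark every match to CANNTG, the E-box that basic helix-loop-helix factors such as Neurog3 and Neurod1 can bind, and its letters read alike on both strands.
Ffar1: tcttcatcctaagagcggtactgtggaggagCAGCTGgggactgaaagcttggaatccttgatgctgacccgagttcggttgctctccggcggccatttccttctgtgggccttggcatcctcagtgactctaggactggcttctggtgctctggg
Ffar2: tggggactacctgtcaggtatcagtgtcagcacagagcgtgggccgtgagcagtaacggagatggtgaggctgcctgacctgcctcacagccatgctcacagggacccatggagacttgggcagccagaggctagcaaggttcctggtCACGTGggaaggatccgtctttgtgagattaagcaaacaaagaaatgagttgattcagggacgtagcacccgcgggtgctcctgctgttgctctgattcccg
Ffar3: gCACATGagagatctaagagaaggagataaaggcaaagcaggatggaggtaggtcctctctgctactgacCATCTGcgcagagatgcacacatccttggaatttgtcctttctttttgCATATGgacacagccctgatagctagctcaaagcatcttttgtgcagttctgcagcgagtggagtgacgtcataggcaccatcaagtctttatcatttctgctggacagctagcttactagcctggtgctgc
The Ffar1 window holds 1 such match, the Ffar2 window 1 and the Ffar3 window 3. Of 32851 promoters in the table, 50.6% hold at least 1 match in a window of 156 bases and 66.2% in 250 bases, so the presence of a match is the common case. The windows of Ffar4 (242 bases) and Gpr119 (250) hold 0 matches and that of Gpbar1 (200) holds 3. A match is a string of letters and not a measured site.

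**Figure D1:**
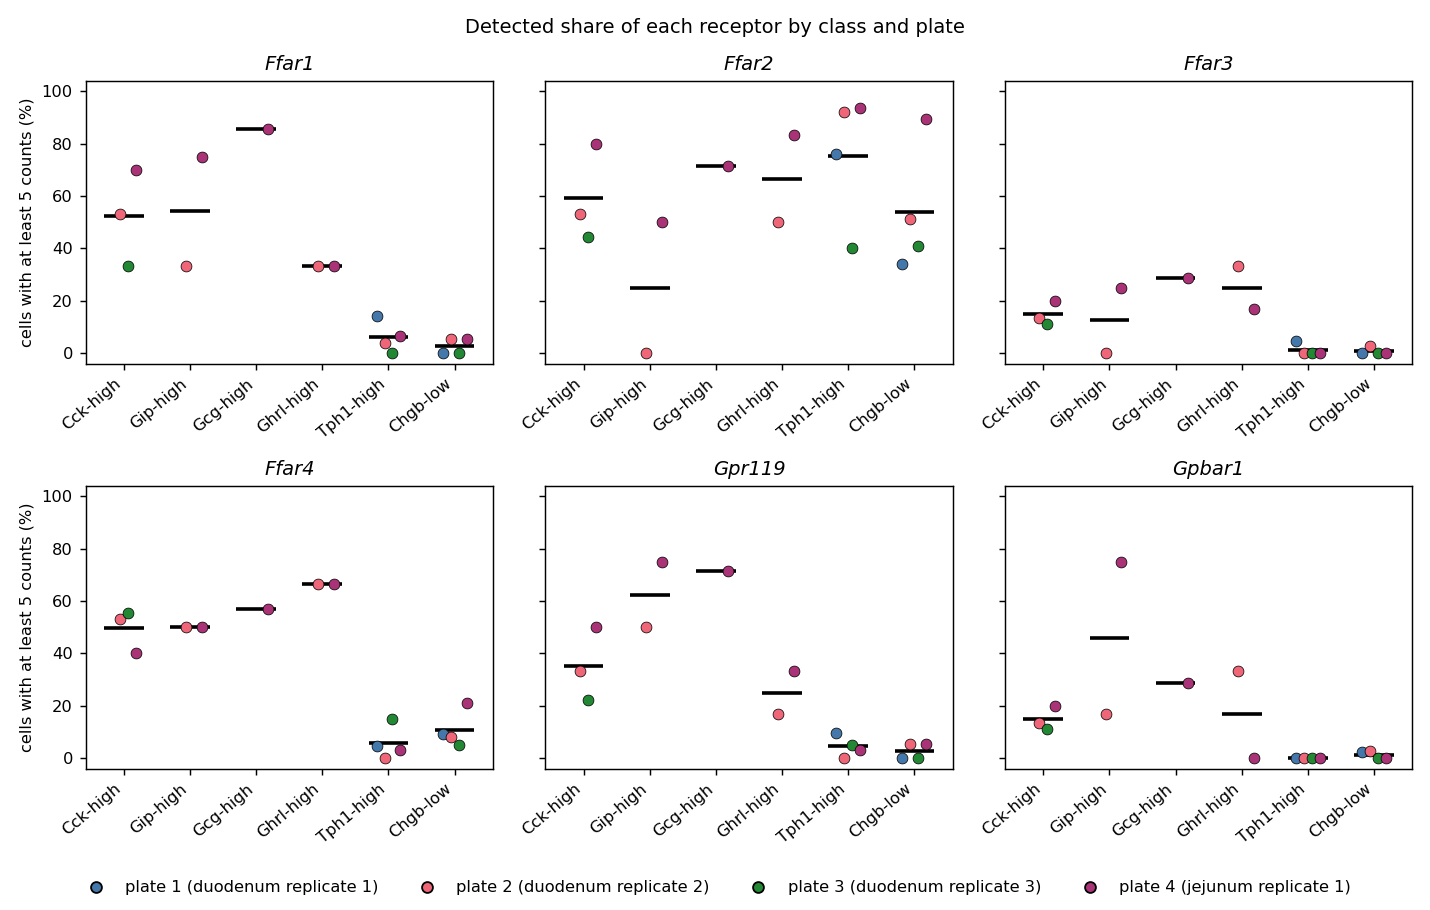
Share of cells with at least 5 counts of each receptor (y axis, percent) in 6 classes of cells (x axis), by plate. Each point is a plate with at least 3 cells of the class and each bar the mean of those plates. Ffar1 lies at 33.3% to 70.0% in Cck-high cells and at or under 14.3% in Tph1-high cells, whereas Ffar2 reaches 93.5% in Tph1-high cells.

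Ffar1, the receptor gene for long-chain fatty acids that couples mainly to the calcium-raising G protein Gq, was found in the peptide-hormone cells. It reached 5 counts in 4, 10, 4 and 11 cells of plates 1 to 4, 29 in all. Of these 29, 26 were high for a hormone, as were 49.7% of all 290 cells. In Cck-high cells it was detected in 1 of 1, 8 of 15, 3 of 9 and 7 of 10 cells, or 19 of 35 (54.3%, exact 95% interval 36.6 to 71.2). Hormone-free Chgb-low cells had it in 0 of 42, 1 of 28, 0 of 37 and 0 of 13, or 1 of 120 (0.833%). Over all Chgb-low cells, which include some hormone-high ones, it was 3 of 139. The interval pools the cells of all plates and leaves out the spread between plates, as do those below. The median depth was 531921 counts in Cck-high and 379137 in hormone-free cells, and with every cell thinned to 200000 counts the shares were still 54.3% and 0.833%.

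The summed level of Ffar1 in Cck-high cells was 496.7, 179.5 and 482.1 CPM on plates 2, 3 and 4, against 3.2, 0.4 and 1.5 CPM in hormone-free cells of the same plates. Every Cck-high sum lay above every hormone-free sum. Here and below, the share of all genes whose sums do not overlap was not computed, so non-overlap is a description only. The Ffar1 means were 386.1 ± 179.1 and 1.7 ± 1.4 CPM (SD, n = 3 plates), and the fold was 153, 481 and 318 by plate. In edgeR's quasi-likelihood test the log2 fold change was 7.82 ± 0.54 (SE) with a Benjamini-Hochberg adjusted p of 0.0445, higher on 3 of 3 plates. Ffar1 was the 1 of 6 receptors tested that passed the threshold of 0.05, and 4 of the 6 had an unadjusted p under it. Of all 10756 genes tested 0.0465% passed, 5 genes when the hormones and Chgb are set aside, and 10.5% had an unadjusted p under 0.05. The adjusted p in edgeR was 0.193, 0.222 and 0.236 when plates 2, 3 and 4 were left out in turn, and 0.0522 with no term for the plate and 0.0542 with the hormone limits halved. The call therefore rests on all 3 plates and on these settings, while the log2 fold change was between 7.53 and 8.30 with a plate left out. The call was kept in 5 of 10 alternative fits, among them DESeq2 (adjusted p = 9.23e-47) and edgeR with no filter on low counts (adjusted p = 0.0173).

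Among the peptide-hormone cells the share with Ffar1 was highest where Gcg was high. It was detected in 10 of 11 Gcg-high cells (2 of 2, 2 of 2 and 6 of 7 on plates 2, 3 and 4) and in 6 of 11 Gip-high cells (2 of 6, 1 of 1 and 3 of 4). All 8 cells high for Gcg and not Gip had it, as did 4 of 8 high for Gip and not Gcg, and 7 of 21 Cck-high cells with neither. Levels were 1149.8, 506.4 and 1161.3 CPM in the Gcg-high cells without Gip on plates 2, 3 and 4. These splits were chosen after the values were seen, they rest on 1 to 10 cells a plate, and the differences between them were not tested.

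Ghrl-high cells divided by Cck. Of the 6 cells high for both Ghrl and Cck, 5 had Ffar1, at 163.3 to 1279.3 CPM. Of the 10 Ghrl-high cells without Cck, 0 had it (0 of 2, 0 of 4 and 0 of 4 on plates 1, 2 and 4), which allows a share of up to 30.0%, and they held 5 counts of Ffar1 together. Over all Ghrl-high cells the sums were 517.0 and 196.0 CPM on plates 2 and 4, against 3.2 and 1.5 CPM in hormone-free cells. The groups did not overlap, but with 2 plates the edgeR adjusted p was 0.149 at a log2 fold change of 6.79 ± 0.75 (SE). In this comparison 0 of 5 receptors and 0 of 9782 genes passed (0%). An unadjusted p under 0.05 was found for 2 of the 5 and for 663 genes (6.78%). DESeq2 called 3 of the 5 and 632 genes (6.46%).

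Tph1-high cells rarely held Ffar1. It was detected in 3 of 21, 1 of 25, 0 of 20 and 2 of 31 cells, and the level was 62.9, 21.7, 0.2 and 2.1 CPM. On plate 1, 57% of the 500 counts came from 1 cell, which was Cck-high as well, and without it the level was 28.6 CPM. Against the hormone-free cells the log2 fold change was 1.58 ± 1.71 (SE, edgeR adjusted p = 0.662), and the sums overlapped.

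Ffar2, the receptor gene for short-chain fatty acids such as acetate and propionate, had another pattern. It reached 5 counts in 36, 48, 31 and 55 cells, 170 in all. Of these, 76 (44.7%) were Tph1-high, as were 33.4% of all 290 cells. In Tph1-high cells it was detected in 16 of 21, 23 of 25, 8 of 20 and 29 of 31, or 76 of 97 (78.4%, exact 95% interval 68.8 to 86.1). In hormone-free Chgb-low cells it was 14 of 42, 13 of 28, 16 of 37 and 12 of 13, or 55 of 120 (45.8%, 36.7 to 55.2). Over all Chgb-low cells it was 67 of 139. Both intervals pool cells over plates and leave out the spread between plates. On plate 3 alone the Tph1-high share was under the hormone-free share of 43.2%.

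Levels of Ffar2 separated the same classes on every plate. Tph1-high cells had 660.0, 552.0, 298.3 and 635.0 CPM on plates 1 to 4, and hormone-free cells 165.5, 136.1, 90.2 and 245.5. The lowest Tph1-high sum was above the highest hormone-free sum, with folds of 3.99, 4.06, 3.31 and 2.59. These folds are plain ratios of CPM, or 2.00, 2.02, 1.73 and 1.37 on the log2 scale. They lack the library scaling (TMM) of the test, whose fold change was smaller. The means were 536.3 ± 165.3 and 159.3 ± 65.3 CPM (SD, n = 4). The log2 fold change was 1.35 ± 0.21 (SE) with an adjusted p of 0.0242 in edgeR's quasi-likelihood test, higher on 4 of 4 plates. It was the 1 of 3 receptors tested that passed, and the 1 with an unadjusted p under 0.05. Of 11771 genes 4.49% passed in either direction, 1.67% as higher and 2.83% as lower, and 20.2% had an unadjusted p under 0.05. DESeq2 called the same 1 receptor and 21.3% of genes. The edgeR adjusted p was 0.101, 0.126, 0.0942 and 0.0534 without plates 1, 2, 3 and 4 in turn, and 0.0836 with no term for the plate, so the call depends on the full fit.

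Many cells held a few Ffar2 counts. At least 1 count was found in 247 of 290 cells, and 77 of those had 1 to 4. In the hormone-free cells 98 of 120 had at least 1 count, and 83 of the 94 cells high for Tph1 alone. RNA carried between wells was not tested. With the added demand that a cell hold at least 0.5% of its plate's Ffar2 counts, 132 of the 170 cells were left. By that stricter limit 67 of 97 Tph1-high and 38 of 120 hormone-free cells had Ffar2.

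Hormone-free cells with Ffar2 were found on both sides of the plate's median goblet sum. Cells above it had Ffar2 in 6 of 21, 5 of 14, 8 of 18 and 6 of 6 cases, at 126.3, 175.1, 99.6 and 296.3 CPM. Cells at or under it had it in 8 of 21, 8 of 14, 8 of 19 and 6 of 7, at 215.4, 105.1, 78.8 and 176.2 CPM. Cells with at least 5 counts of Neurog3 had Ffar2 in 2 of 3, 4 of 5, 6 of 13 and 3 of 3, at 439.9, 380.8, 102.6 and 657.6 CPM. The other hormone-free cells had it in 12 of 39, 9 of 23, 10 of 24 and 9 of 10, at 146.0, 90.2, 85.4 and 111.9 CPM. The Neurog3-positive sums were higher on 4 of 4 plates. Both splits were made after the values were seen, with 3 to 13 cells a plate on the Neurog3 side, and were not tested.

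**Figure D2:**
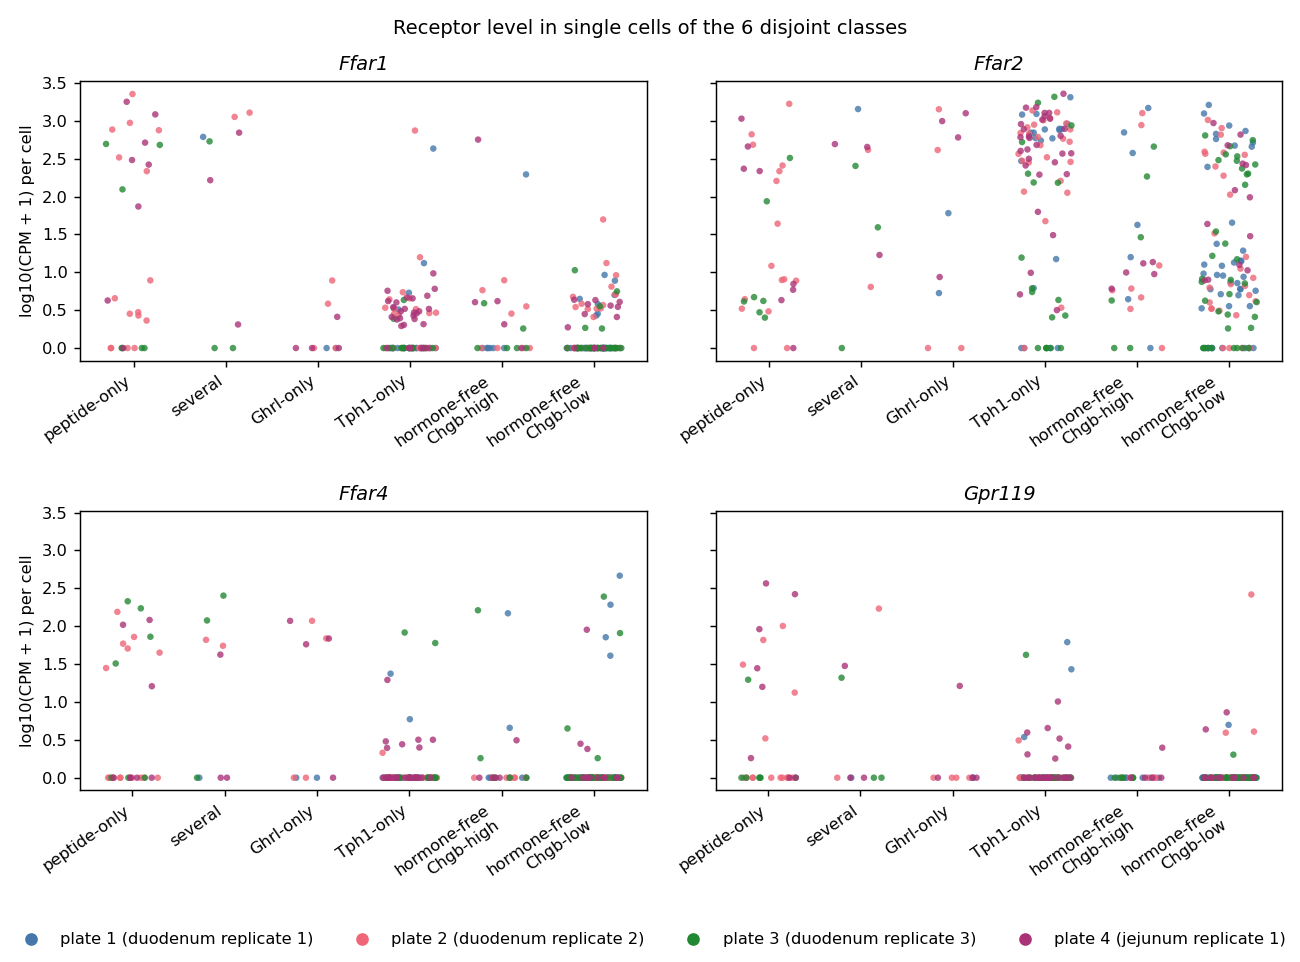
Level of Ffar1, Ffar2, Ffar4 and Gpr119 in every cell (y axis, log10 of CPM + 1) in 6 classes that share no cell (x axis), coloured by plate. Peptide-only means high for Cck, Gip or Gcg and for neither Ghrl nor Tph1, and several means high across these kinds. Each point is a cell, and the detected Ffar1 cells of the peptide-only class lie between 72.9 and 2252.2 CPM.

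Gip-high cells were low in Ffar2. It was detected in 0 of 6, 0 of 1 and 2 of 4 cells on plates 2, 3 and 4, and the level was 5.1, 2.0 and 4.8 CPM, under that of the hormone-free cells of each of these plates. All 8 cells high for Gip and not Gcg were under 5 counts, whereas 7 of 8 high for Gcg and not Gip passed, at 164.7, 61.7 and 630.8 CPM. Ghrl-high cells without Cck were high, at 547.6 CPM on plate 2 and 633.2 on plate 4. Over all Ghrl-high cells the sums were 397.9 and 539.3 CPM on these plates, with a log2 fold change over hormone-free cells of 0.98 ± 0.41 (SE, edgeR adjusted p = 0.613). In Cck-high cells as a whole, Ffar2 was at 230.1, 82.9 and 312.8 CPM on plates 2, 3 and 4 against 136.1, 90.2 and 245.5 in hormone-free cells, with a log2 fold change of 0.05 ± 0.35 (SE, edgeR adjusted p = 0.970). Those sums overlapped, and the sign of the fold change turned in 4 of 10 alternative fits.

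Ffar4, the second receptor gene for long-chain fatty acids, was found in 6, 10, 11 and 9 cells, 36 in all. It was detected in 0 of 1, 8 of 15, 5 of 9 and 4 of 10 Cck-high cells (17 of 35, 48.6%, exact 95% interval 31.4 to 66.0) and in 4 of 42, 0 of 28, 2 of 37 and 1 of 13 hormone-free cells (7 of 120, 5.83%). Over all Chgb-low cells it was 13 of 139. Levels were 35.7, 90.0 and 44.5 CPM in Cck-high cells of plates 2, 3 and 4, against 0.0, 4.0 and 7.6 CPM. The groups did not overlap. A log2 fold change of 4.70 ± 2.00 (SE) did not pass in edgeR (adjusted p = 0.519), and DESeq2 gave an adjusted p of 0.00146.

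Unlike Ffar1, Ffar4 was present in Ghrl-high cells without Cck. These had it in 0 of 2, 2 of 4 and 3 of 4 cells on plates 1, 2 and 4, at 48.4 and 58.5 CPM on plates 2 and 4. Over all Ghrl-high cells the share was 9 of 16, and the sums of 53.1 and 49.6 CPM on plates 2 and 4 stood against 0.0 and 7.6 CPM in hormone-free cells. Their log2 fold change was 5.93 ± 4.10 (SE, edgeR adjusted p = 0.828). Of the 10 Ghrl-high cells without Cck, 5 had Ffar4 and 0 had Ffar1, a contrast seen after the values were known and not tested. Tph1-high cells had Ffar4 in 1 of 21, 0 of 25, 3 of 20 and 1 of 31, with levels of 0.1 to 12.97 CPM, a log2 fold change of -1.46 ± 2.05 (SE, edgeR adjusted p = 0.745) and overlapping sums.

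The highest Ffar4 level of any cell, 462.8 CPM, was in a hormone-free cell of plate 1. That cell gave 67% of the 264 Ffar4 counts in its class and plate. On plate 1, 4 of the 6 cells with Ffar4 were hormone-free, as were 42 of all 72 cells there.

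Gpr119, which couples to the cAMP-raising G protein Gs, passed 5 counts in 2, 6, 3 and 8 cells, 19 in all. Of these, 18 were high for a hormone, as were 49.7% of all 290 cells. Cck-high cells had it in 0 of 1, 5 of 15, 2 of 9 and 5 of 10 (12 of 35, 34.3%, exact 95% interval 19.1 to 52.2), hormone-free cells in 0 of 42, 1 of 28, 0 of 37 and 0 of 13, and all Chgb-low cells in 3 of 139. The level in Cck-high cells was 26.6, 6.1 and 85.6 CPM on plates 2, 3 and 4, against 7.5, 0.05 and 0.6 CPM. The ranges overlapped, and 1 hormone-free cell of plate 2 held 97 of the 99 counts there. Its log2 fold change was 5.09 ± 1.96 (SE, edgeR adjusted p = 0.469, DESeq2 adjusted p = 0.00106).

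Among Cck-high cells Gpr119 was seldom found outside those also high for Gcg or Gip. It was found in 8 of 11 Gcg-high cells and 6 of 11 Gip-high cells, but in 1 of 21 Cck-high cells with neither hormone. The Gip-high cells include 5 that were not Cck-high, among them a cell of plate 4 with 9 Gpr119 counts. As for Ffar1, this split was chosen after the values were seen and was not tested. In Gcg-high cells the level was 17.2, 19.3 and 118.9 CPM on plates 2, 3 and 4. Thinning to 200000 counts a cell lowered these shares to 45.5% of Gcg-high and 36.4% of Gip-high cells. Tph1-high cells had it in 2 of 21, 0 of 25, 1 of 20 and 1 of 31 cells. Ghrl-high cells had it in 4 of 16, and 3 of those 4 were also Cck-high.

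Gpbar1 was found in 8 cells, 1, 3, 1 and 3 by plate. Of these, 5 were Cck-high, as were 12.1% of all 290 cells. Of the 11 Gip-high cells 4 had it (1 of 6, 0 of 1 and 3 of 4 on plates 2, 3 and 4), at 29.2, 0.0 and 111.0 CPM. None of 97 Tph1-high cells passed 5 counts, which allows a share of up to 3.09%, and 2 of 139 Chgb-low cells did. Of the 120 hormone-free cells 1 did, on plate 1, with 33 counts at 111.4 CPM. The hormone-free sum of that plate was at 2.5 CPM. Levels in Cck-high cells were 11.3, 31.1 and 28.7 CPM against 0.0, 0.0 and 0.3 CPM in the hormone-free cells of plates 2, 3 and 4. On plates 2 and 3 the fold was at least 49.8 and at least 222, with the floor of 3 counts per class sum. A single cell gave 90% of the Cck-high counts on plate 2, 99% on plate 3 and 66% on plate 4, and without it the levels were 1.15, 0.29 and 11.4 CPM. The log2 fold change of 8.68 ± 2.19 (SE) had an edgeR adjusted p of 0.268 and a DESeq2 adjusted p of 4.91e-05.

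Ffar3, the other short-chain fatty acid receptor gene, was detected in 7 cells, 1, 2, 2 and 2 by plate. Their levels in falling order were 725.0, 407.4, 305.7, 263.3, 259.5, 153.6 and 11.8 CPM. Of these cells 5 were Cck-high, 4 of the 5 also Ghrl-high, 1 was Gip-high alone and 1, on plate 1, was Tph1-high. Hormone-free cells had it in 0 of 120, which allows a share of up to 2.5%. In Cck-high cells the sums were 31.5, 48.9 and 59.4 CPM on plates 2, 3 and 4 against 0.1, 0.6 and 0.9 CPM, and the groups did not overlap. Its log2 fold change was 6.58 ± 1.36 (SE) with an edgeR adjusted p of 0.196, and a DESeq2 adjusted p of 2.21e-07. A single cell gave 97% of the counts on plate 2, 100% on plate 3 and 51% on plate 4.

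Of the 7 cells with Ffar3, 6 also had Ffar1 and 6 had Ffar4. Because Ffar3 begins 1211 bases past the annotated end of Ffar1 on the same strand, their counts were set side by side. The 2 cells with the most Ffar1, at 2252.2 and 1780.6 CPM, had 0 counts of Ffar3. Conversely, the cell with 725.0 CPM of Ffar3 had 493.2 CPM of Ffar1, and the Tph1-high cell with 259.5 CPM of Ffar3 had 4.4 CPM of Ffar1. Of 29 cells with Ffar1, 23 were under 5 counts of Ffar3 and 17 of those were at 0.

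Casr was not detected in any class. It had 4 counts in the whole table, 1 on plate 1, 1 on plate 2, 0 on plate 3 and 2 on plate 4, in 4 different cells. At the limit of 5 counts 0 of 290 cells had it, which allows a share of up to 1.03%. The Casr locus overlaps the annotated RNA gene Gm25902, and the counting of reads there is not given in the sources used here.

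**Figure D3:**
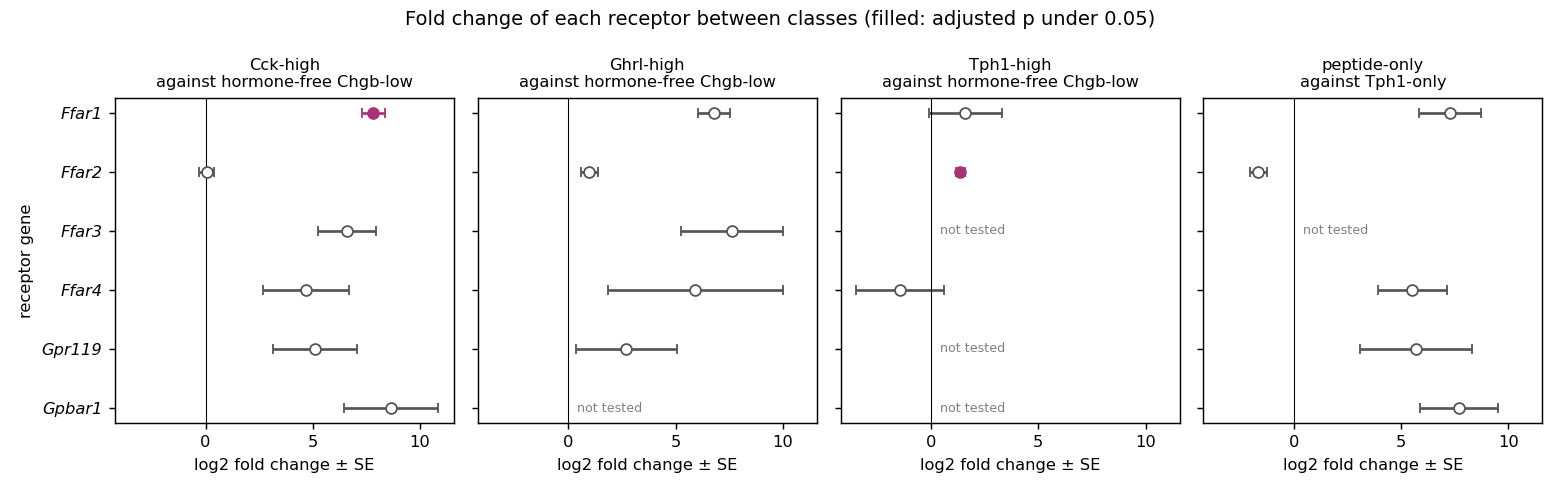
Log2 fold change with its SE (x axis) of each receptor gene (y axis) in 4 comparisons of plate sums, from edgeR's quasi-likelihood test. Filled points passed an adjusted p of 0.05, which are Ffar1 in Cck-high cells (7.82) and Ffar2 in Tph1-high cells (1.35), and receptors with too few counts are marked as not tested.

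The 3 comparisons with hormone-free cells share those control cells and are not independent. Against them, 5 of 7 receptors had a higher detected share in Cck-high cells on every plate compared, where 14.8% of 16174 genes did and 8.92% had a lower one. In Ghrl-high cells it was 4 of 7, with 19% of 13773 genes higher and 18.8% lower, and in Tph1-high cells 0 of 7, with 12.4% of 18252 genes higher and 5.96% lower. With every cell thinned to 200000 counts, Gpr119 was no longer higher on every plate. It was then at 4 of 15, 0 of 9 and 4 of 10 Cck-high cells on plates 2, 3 and 4, and at 1 of 6 and 0 of 6 Ghrl-high cells on plates 2 and 4, against 1 of 28, 0 of 37 and 0 of 13 hormone-free cells. Of the 7 receptors, 6, 5 and 3 had enough counts for the test in Cck-high, Ghrl-high and Tph1-high cells, some of them only through the class where they were high. DESeq2 called 5 of the 6 in Cck-high cells, with 11.9% of all genes called.

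The remaining receptors of these comparisons were at or under 7.5 CPM in the hormone-free sums. In Ghrl-high cells Ffar3 was at 94.8 and 71.0 CPM on plates 2 and 4 against 0.1 and 0.9 in hormone-free cells. Its log2 fold change was 7.63 ± 2.39 (SE, edgeR adjusted p = 0.613, DESeq2 adjusted p = 5.21e-05). On plate 2, 226 of the 234 counts came from 1 cell, and on plate 4, 237 of 242. Both cells were also Cck-high, and of the 7 cells with Ffar3, 0 were high for Ghrl alone. Gpr119 was at 34.8 and 10.0 CPM in Ghrl-high cells of plates 2 and 4, with a log2 fold change of 2.70 ± 2.36 (SE, edgeR adjusted p = 0.895). A cell high for both Cck and Ghrl gave all 86 Gpr119 counts on plate 2, and another such cell gave 26 of 34 on plate 4. Gpbar1, at 9.3 and 0.3 CPM against 0.0 and 0.3, had too few counts to be tested, as did Ffar3, Gpr119 and Gpbar1 in Tph1-high cells. Casr had at most 1 count in any class sum compared and was not tested.

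Peptide-hormone and serotonin cells were then compared directly, in classes that share no cell. The 31 peptide-only cells (0, 16, 7 and 8) were high for Cck, Gip or Gcg and for neither Ghrl nor Tph1, and the 94 Tph1-only cells (20, 25, 19 and 30) were high for Tph1 alone. Ffar1 was at 324.3, 210.9 and 535.1 CPM in the peptide-only cells of plates 2, 3 and 4, and at 21.7, 0.2 and 2.2 CPM in the Tph1-only cells. Ffar2 was at 202.3, 53.7 and 253.8 CPM against 552.0, 309.2 and 640.6. Neither gene overlapped between the classes, and the directions were opposite on all 3 plates. The share of all genes without overlap was not computed, so this is a description only.

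In edgeR's quasi-likelihood test neither difference passed. The log2 fold change was 7.26 ± 1.45 (SE, adjusted p = 0.560) for Ffar1 and -1.67 ± 0.39 (SE, adjusted p = 0.560) for Ffar2. Of 5 receptors tested 0 passed and 4 had an unadjusted p under 0.05. Of all 10934 genes 0.0823% passed (0.0274% higher, 0.0549% lower), and 6.78% had an unadjusted p under 0.05. DESeq2 called all 5, with adjusted p of 9.85e-18 for Ffar1 and 0.00798 for Ffar2, and 7.34% of all genes. Some of the 5 had enough counts for the test only through the class where they were high. Gpbar1, for example, had 2, 1 and 4 counts in the Tph1-only sums of plates 2, 3 and 4. The counts of receptors called are therefore partly set by that filter, and they were not tested against the share of all genes. Ffar4 was at 27.2, 90.6 and 48.8 CPM against 0.1, 9.1 and 1.2, and Gpr119 at 14.9, 4.0 and 101.7 against 0.1, 2.5 and 0.7. Gpbar1 was at 10.2, 42.2 and 60.4 against 0.2, 0.1 and 0.2. A single peptide-only cell gave all 75 Gpbar1 counts on plate 2, and another gave 127 of 128 on plate 3. Ffar3 was at 0.0, 121.6 and 37.7 against 0.3, 0.5 and 0.9 CPM, lower on plate 2 and higher on the others, so the classes overlapped. All 369 Ffar3 counts of the peptide-only cells of plate 3 came from 1 cell. Ffar3 had too few counts to be tested, and so did Casr. Of 7 receptors, 4 had a higher detected share in peptide-only cells on every plate (6.85% of 16179 genes) and 1, Ffar2, a lower one (12% of genes).

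Jejunum and duodenum were compared on the sum of all cells. Ffar2 was at 465.1 CPM in the jejunum plate and 345.5, 309.6 and 139.3 CPM in the duodenum plates. Gpr119 was at 16.3 against 1.7, 7.7 and 1.3 CPM, Gpbar1 at 9.1 against 1.4, 2.6 and 3.4, and Ffar1 at 103.5 against 23.7, 103.9 and 26.6. The jejunum plate was outside the duodenum range for Ffar2, Gpr119 and Gpbar1. Ffar3 (11.5 against 5.2, 6.2 and 15.6) and Ffar4 (12.9 against 13.2, 8.7 and 18.3) lay within it, and Casr had 2 counts against 1, 1 and 0. The share of all genes outside the duodenum range was not computed, so the place of a receptor in it is a description only. None of 6 receptors tested passed in edgeR, where the smallest adjusted p among them was 0.934, and 0% of 19323 genes passed, with 818 (4.23%) and 0 receptors at an unadjusted p under 0.05. DESeq2 called 730 genes (3.78%) and 0 receptors. With 1 plate against 3, an exact permutation test cannot go below p = 0.25. The jejunum plate was also the deepest and had the most Gcg-high cells, 7 of 63, and the part of either in these levels was not tested.

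**Figure D4:**
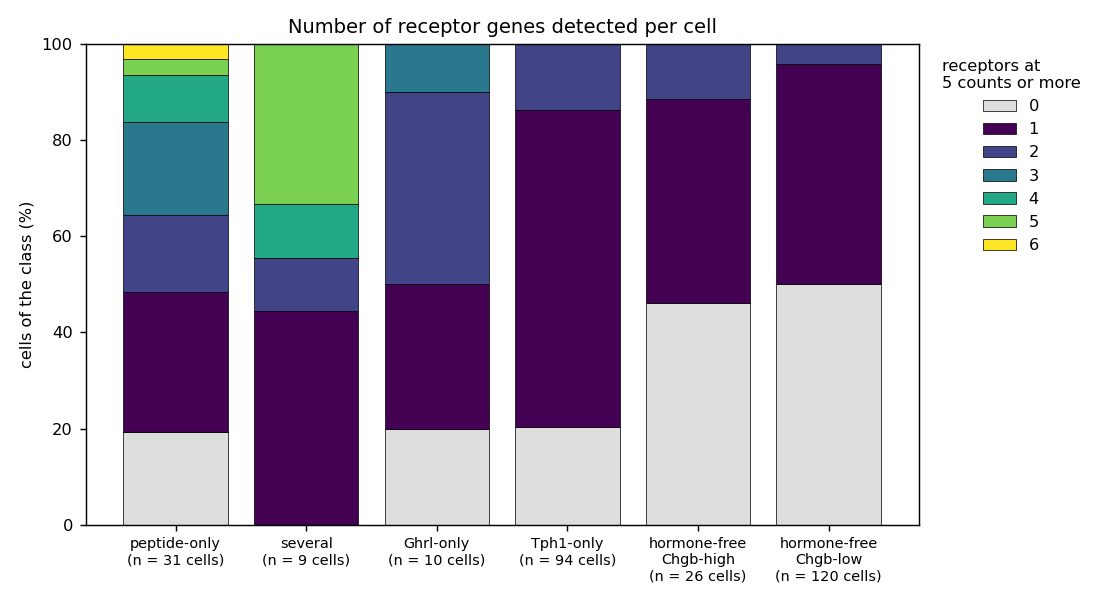
Percent of cells (y axis) with 0 to 6 receptor genes at 5 counts or more, in 6 classes that share no cell (x axis, cell numbers beneath), over all plates. The share with at least 2 receptors is 51.6% in peptide-only, 50.0% in Ghrl-only and 55.6% in several. It is 13.8% in Tph1-only and 4.17% in hormone-free Chgb-low cells.

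Receptors were often found together in cells high for a peptide hormone, Ghrl included. Over all 290 cells, 99 had none of the 7 receptors, 144 had 1, 31 had 2, 7 had 3, 4 had 4, 4 had 5 and 1 had 6. At least 2 receptors were found in 7 of 16, 3 of 7 and 6 of 8 peptide-only cells on plates 2, 3 and 4. The same held for 5 of 10 cells high for Ghrl alone and 5 of 9 cells high across several kinds, over all plates. In Tph1-only cells this was 5 of 20, 1 of 25, 3 of 19 and 4 of 30, and in hormone-free Chgb-low cells 2 of 42, 1 of 28, 1 of 37 and 1 of 13. All 16 cells with 3 or more receptors were high for a hormone, as were 49.7% of all cells. Of the 16, 11 were peptide-only, 4 high across several kinds and 1 high for Ghrl alone. The cell with 6 was on plate 4 and high for Cck, Gip and Gcg. Cells with 3 or more receptors had a median depth of 589530 counts, those with 0 a median of 378663, and the part of depth was not tested. All of these shares are over cells, and plates are the replicates.

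Among pairs, Ffar1 and Ffar4 shared 14 cells, which is 48.3% of the cells with Ffar1 and 38.9% of those with Ffar4. Ffar1 and Gpr119 shared 11 cells, 37.9% and 57.9%. Ffar1 and Ffar2 shared 20, which is 69.0% of the Ffar1 cells and 11.8% of the Ffar2 cells. Among all 290 cells, Ffar2 was found in 170, Ffar4 in 36, Ffar1 in 29 and Gpr119 in 19. Most cells thus had Ffar2, so the 69.0% is not by itself a sign of shared expression. No overlap was tested against these numbers. Of the 8 cells with Gpbar1, 6 had Ffar1.

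With the hormone genes and Chgb set aside because they define the classes, genes with the most similar profile were sought over 19 sums of plate and class, as the correlation r of log2(CPM + 10) after centring on each plate. The sums share libraries and the values are a description without a test. For Ffar1 they were Nf2 (r = 0.93), Sct (0.91), which encodes the hormone secretin, and Etv1 (0.89), while Gcg itself had r = 0.91. For Ffar2 they were Gnb1 (0.86), a G-protein beta subunit gene, Abcb9 (0.84) and Hexim1 (0.83). For Ffar4 they were Krt20 (0.85), a keratin gene of differentiated gut epithelium, Tm4sf4 (0.83) and Tmx1 (0.82), and for Gpr119 they included Prss30 (0.90) and Sdcbp2 (0.81). With a pseudocount of 1, 5 of the 12 nearest genes, 3 for each of these receptors, were again among the 3 nearest.

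Other genes of nutrient sensing were read from listed genes. Of 11 other nutrient receptors, 2 had enough counts in the Cck-high comparison and 0 passed in edgeR, while Tas1r1 and Tas1r2 are not in the table used here. Of 16 nutrient carriers and metabolic sensors, 8 were tested there and 0 passed. In the peptide-only comparison 1 of 8 passed, with 0.0274% of all genes passing as higher: Fabp5, a fatty-acid-binding protein gene, rose by 5.29 ± 0.33 on the log2 scale (SE, edgeR adjusted p = 0.0213), at means of 1917.2 against 57.9 CPM. In Tph1-high cells 1 of 6 passed, with 2.83% of all genes passing as lower: Slc2a5, the fructose carrier gene, fell by 2.89 on the log2 scale (SE 0.38, edgeR adjusted p = 0.0125), at means of 23.1 against 120.1 CPM.

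Of 25 listed genes of G-protein signalling and ion channels, 17 were tested in Tph1-high cells, where 2 rose and 0 fell. Of all genes, 1.67% passed as higher and 2.83% as lower. Trpa1, a cation channel gene that senses irritants, rose by 7.72 ± 0.41 on the log2 scale (SE, edgeR adjusted p = 0.00154), at means of 175.1 against 0.579 CPM. Arrb1, which encodes the beta-arrestin that binds activated receptors, rose by 5.89 ± 0.68 (SE, edgeR adjusted p = 0.00711). In the Cck-high comparison 14 of the 25 were tested and 0 passed. Of 16 receptors for hormones and transmitters, 0 passed in the Cck-high and Tph1-high comparisons, with 9 and 8 tested. None of these 4 lists had a gene past the threshold in the Ghrl-high or jejunum comparison.

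Of the 5 endocrine markers, 1 passed in Cck-high cells, with 0.0465% of all genes. Scg2 rose by 8.68 ± 0.50 on the log2 scale in Cck-high cells (SE, edgeR adjusted p = 0.0290), at means of 2201.0 against 4.9 CPM. It was, with Ffar1, among the 5 genes that passed there, and the other 3, named after their values were seen, were Rbp4, Sphkap and Cpe. Chga rose by 3.74 ± 0.27 in Tph1-high cells (SE, edgeR adjusted p = 0.00247). It fell by 3.34 (SE 0.26, edgeR adjusted p = 0.0319) in peptide-only against Tph1-only cells, at means of 757.2 against 7686.9 CPM. In the Tph1-high comparison the 6 goblet markers tested and 4 of 6 Paneth markers fell, with 2.83% of all genes passing as lower, and the mesenchymal marker Vim rose by 6.89 ± 0.30 (SE, edgeR adjusted p = 0.000812) at 1873.8 against 11.3 CPM. Of the 4 mesenchymal markers, up to 2 were at 0 in Tph1-high cells of a plate, and the whole list summed to 743.3 to 2659.4 CPM there.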

How the data were processed

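Single eYFP-positive, DAPI-negative cells were sorted at 1 per well, with BD Precise WTA library chemistry, per the labels. The deposited table gives raw counts, as whole numbers, for each gene in each well. The submitters' processing notes name bcl2fastq 2.17.1.14, cutadapt 1.10, Bowtie2 2.2.8, STAR 2.5.3a, UMI-tools 0.4.4, HTSeq 0.6.1 and mm10, without roles. How cells were filtered, and whether counts are collapsed molecules, is not stated in those notes. A single value reached 643177, so counts may include PCR copies, and intervals and limits for 0 cover counting error only. Columns were matched to samples by the number shared by the column suffix and the pool title (0 unassigned), and 29120 of 29161 identifiers matched a symbol.

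CPM, exact Clopper-Pearson 95% intervals and limits for a count of 0 (3 counts or cells) were computed per plate and class and over all plates. CPM and the folds by plate use plain totals, without the TMM scaling of the edgeR fits. The intervals and limits printed for shares pool the cells of all plates and do not measure the spread between plates. The deposited table held cells already filtered by the submitters, and no further cell filter or doublet caller was used. Of 92 well positions, 88 recur between plates as different cells. Raw counts were summed per plate and class where both classes had at least 3 cells, and fitted with edgeR 4.0.16 (quasi-likelihood, TMM, filterByExpr, plate as block, Benjamini-Hochberg over all genes, threshold 0.05) in R 4.3.3. The test script was tested on simulated data. DESeq2 1.42.0, other filters, limits, depths and left-out plates were alternatives. Class genes and Chgb were left out of gene counts. Replicate numbers follow accession order and pair no samples, but class sums of a plate come from the same sort.

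All 7 receptors were to be named in each comparison. Listed genes are named where they passed the threshold with 1 direction on every plate, at most 5 per direction. The members, classes and lists were chosen with earlier results of these data known. Of the 12 genes nearest in profile to a receptor, the one missing from the text is not reported here.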

Additional observations from a re-analysis of the deposited data

How the results depend on the processing

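Few plates and few cells per class limit these results. The number of genes called moved with the tool and the settings. DESeq2 called 1280 genes in Cck-high, 632 in Ghrl-high, 2512 in Tph1-high, 803 in peptide-only against Tph1-only and 730 in jejunum against duodenum, where edgeR called 5, 0, 529, 9 and 0. Higher and lower calls were 609 and 671 in the Cck-high comparison with DESeq2, against 5 and 0, and 1324 and 1188 in the Tph1-high comparison, against 196 and 333. With no filter on low counts edgeR called 73 in Cck-high (18 higher, 55 lower), 72 in Ghrl-high and 9 in the jejunum comparison, and with doubled hormone limits 78 in Cck-high (18 higher, 60 lower) and 1 in Ghrl-high. With no replicate block it called 1 in Ghrl-high and 14 in peptide-only against Tph1-only. The edgeR adjusted p of Ffar1 in Cck-high cells was then 0.0522, and 0.0542 with the limits halved.

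Leaving out 1 plate gave 0 to 1 genes in Cck-high, 195 to 270 in Tph1-high, 0 in each case in peptide-only against Tph1-only, and 0 to 10 in the jejunum comparison, where 10 came without duodenum replicate 2. Ghrl-high without either plate, and the tissue comparison without the jejunum plate, could not be fitted. No paired analysis was possible for tissue because the groups share 1 replicate number.

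Of 198 alternative fold changes of a receptor, 168 kept direction and side of the threshold, 10 lost the call, 12 gained it (all with DESeq2) and 8 turned sign, none of the 8 from a call. Ffar2 in Cck-high cells was at -0.068 with doubled limits, -0.13 without the cell with the most receptor counts on each plate (an alternative chosen after seeing the data), and -0.17 to 0.34 with a plate left out. It was -0.46 in Ghrl-high cells with halved limits. With a plate left out, Ffar4 was between -2.67 and 0.042 in Tph1-high cells (0.042 without plate 1) and between -0.32 and 0.29 in the jejunum comparison (0.29 without plate 3), and Ffar3 between -0.0019 (without plate 1) and 1.05 there. At 1 count instead of 5, 159 cells had at least 2 receptors instead of 47. With a pseudocount of 1, 5 of 12 similar genes recurred.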
